A study of Mus musculus with 6 samples.

Results

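The integrated stress response is the programme by which cells react to amino acid shortage, haem shortage, misfolded protein in the endoplasmic reticulum or viral RNA. Sensor kinases phosphorylate the translation initiation factor eIF2, which slows most protein synthesis while the mRNA of the transcription factor ATF4 is translated better, and ATF4, with its target CHOP (encoded by Ddit3), then switches on genes of amino acid supply, translation control and cell death. In red cell precursors the haem-regulated kinase HRI is the best known of these sensors. Described here are 10 genes of the ATF4 and CHOP branch, chosen by gene symbol from 25628 symbols of a raw count table. They are the transcription factor genes Atf4, Atf3, Atf5 and Ddit3, the feedback genes Trib3 and Ppp1r15a, the mTORC1 inhibitor genes Ddit4 and Sesn2, the glutathione-degrading enzyme gene Chac1 and the asparagine synthetase gene Asns. All 10 were in the table and all 10 passed the filter on low counts, as did 14158 genes in all.

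RNA-seq was made of TgSpi1 erythroleukaemic cells of the mouse, leukaemic erythroid cells from bone marrow, labelled 722, that carry a transgene for the transcription factor PU.1 (Spi1) and were kept in erythropoietin. One group was given doxycycline for 48 h, which induces an shRNA against Spi1, and the other was left untreated. Both groups carry the transgene and the inducible shRNA, so the comparison asks which transcripts change when Spi1 is lowered, and an effect of doxycycline itself cannot be told apart from that of the shRNA. Each group had 3 libraries that the labels call biological replicates, numbered 1 to 3, all from cells with the same number 722. The promoter that drives each construct is not given in the sources used here.

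Library totals lay between 78926663 and 101276319 counts. Levels are in CPM, counts scaled to a common library size with TMM factors. Spi1 stood at 84.8, 80.4 and 62.1 CPM in doxycycline replicates 1, 2 and 3, against 415, 353 and 329.6 CPM in untreated replicates 1, 2 and 3 (log2 fold change -2.27, SE 0.17, edgeR adjusted p = 0.0030). All 10 erythroid marker genes listed were detected in every library, with a summed level of 6899 to 9275 CPM with doxycycline and 5105 to 6132.5 CPM untreated, a sum led by Tfrc and Car2. Of these 10, Car2 rose with the group alone (log2 fold change 0.88, adjusted p = 0.017), and with the block 7 rose and the globin gene Hbb-bs fell (-0.37, adjusted p = 0.034). Their median log2 fold change was 0.47 with the group alone and 0.42 with the block, and their part in the results below was not tested. Macrophage, B cell, T cell and stromal markers summed to at most 1.71 CPM in any library of either group, and mast cell markers to between 0.733 and 1.51 CPM with doxycycline and between 2.94 and 12.05 CPM untreated. Neutrophil markers reached 11.2 CPM with doxycycline and 43.1 CPM untreated, both in replicate 2. Megakaryocyte markers, led by Pf4, summed to between 33.3 and 151 CPM with doxycycline and between 56.5 and 291 CPM untreated. The part of these other markers was not tested either.

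All 10 genes were higher with doxycycline than untreated within each of the 3 pairs of equal replicate number, which was so for 28.0% of all genes tested. Equally numbered libraries strayed from the mean of their group in the same way (correlations across genes of 0.77, 0.74 and 0.72 for numbers 1, 2 and 3), so values with the replicate number as a block in the fit are given beside those of the fit with the group alone. With the group alone, 2 of the 10 rose at an adjusted p under 0.05 (Trib3 and Atf5), where 0.417% of all genes tested did so. With the block, 9 of the 10 rose (all but Ddit4), where 10.3% of all genes did so, and none fell in either fit or by DESeq2, nor did any have a negative value at an unadjusted p under 0.05. At that unadjusted level 5 of the 10 were higher with the group alone, but the share of all genes there was not counted. The median log2 fold change of the 10 genes was 0.75 with the group alone and 0.69 with the block, beside 0.01 and 0.00 over all genes tested. The ranges of the doxycycline and untreated libraries were apart for 5 of the 10 (Trib3, Chac1, Ddit3, Atf5 and Asns), which was so, in the upward direction, for 8.88% of all genes. Since the reads come from whole cultures, more RNA per cell and more cells with the RNA cannot be told apart.

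**Figure D1:**
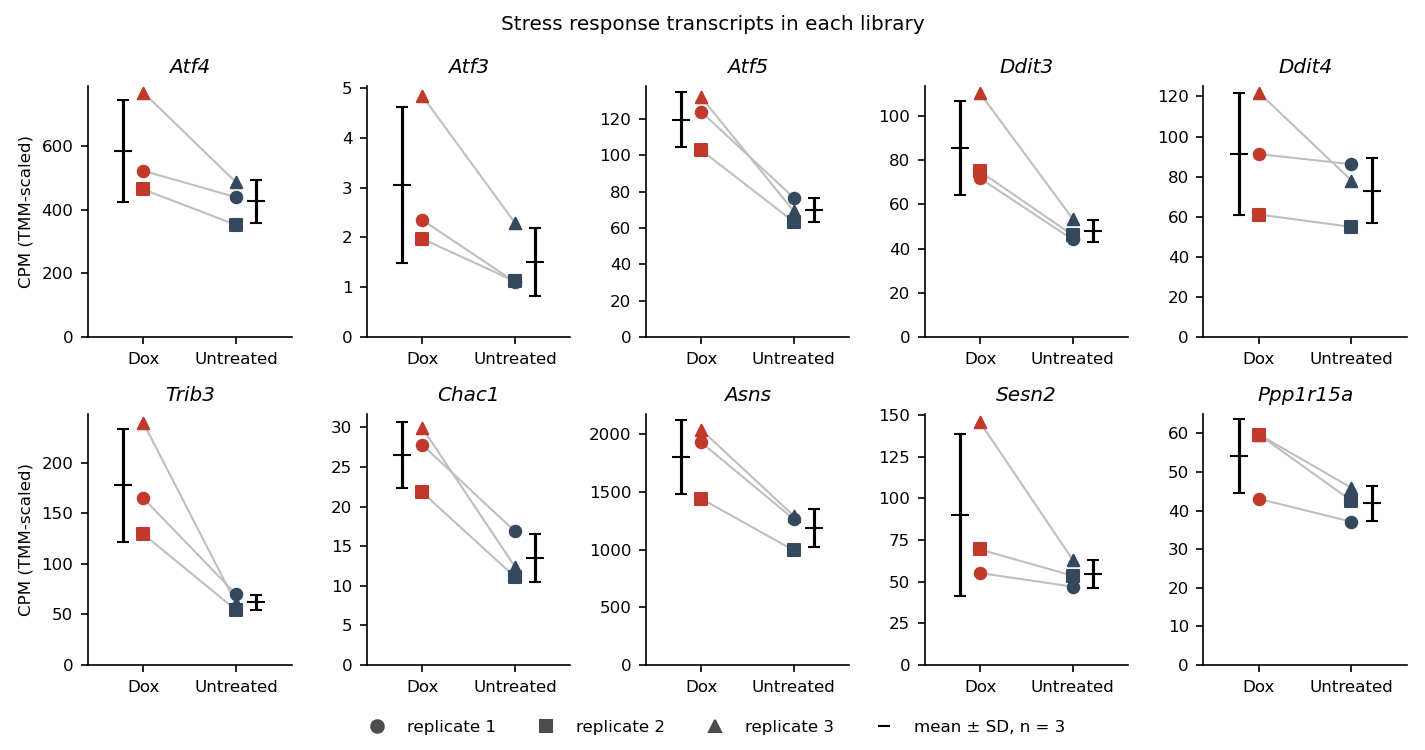
CPM (on TMM-scaled library sizes, linear axis from 0) of the 10 genes in each library, with doxycycline at the left and untreated at the right of each panel. Grey lines join libraries of equal replicate number and bars show mean ± SD (n = 3). All 30 lines run higher at the doxycycline end, and the triangle of doxycycline replicate 3 is the highest point of every panel.

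Among the factors, Atf4, the basic leucine zipper activator that defines the response, had 521, 463 and 766 CPM in doxycycline replicates 1, 2 and 3, against 439, 352 and 485 CPM in untreated replicates 1, 2 and 3. The groups overlapped, since doxycycline replicate 2 was below untreated replicate 3. The log2 fold change of Atf4 was 0.46 (SE 0.22, edgeR adjusted p = 0.40), and 0.43 with the block (SE 0.10, adjusted p = 0.011). Leaving out both libraries of replicate 1 took the block call away (0.54, adjusted p = 0.057), and leaving out those of replicate 3 gave 0.32 (adjusted p = 0.0049). With the group alone the value was 0.22 without doxycycline replicate 3 (adjusted p = 0.73). Atf4 is known to be controlled mostly by translation of its mRNA, and no protein was measured here. The gene (ENSMUSG00000042406.8) lies on chromosome 15 from 80255184 to 80257541 (plus strand, build GRCm38).

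Ddit3 encodes CHOP, the C/EBP-related factor that turns a lasting response towards cell death. It had 71.7, 74.8 and 110.0 CPM with doxycycline, against 44.1, 46.1 and 53.5 CPM untreated, in replicates 1, 2 and 3. Each doxycycline library was above each untreated one. Its log2 fold change was 0.84 (SE 0.20, adjusted p = 0.087), and 0.81 with the block (SE 0.10, adjusted p = 2.7e-04). The call with the block was kept whichever replicate number was left out (0.70 to 0.89). Ddit3 (ENSMUSG00000025408.15) lies on chromosome 10 from 127290774 to 127296288 on the plus strand, and GENCODE gives the same symbol to a shorter gene inside that span. Its exons share 68 bases with Mars on the other strand, and Mars itself had a log2 fold change of 0.24 with the block (adjusted p = 0.059).

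Atf5, a factor related to ATF4 that is tied to mitochondrial protein stress, had 124, 103 and 132 CPM with doxycycline, against 76.7, 63.5 and 69.3 CPM untreated. Each doxycycline library was above each untreated one, with group means of 119.6 ± 15.0 and 69.8 ± 6.63 CPM (SD, n = 3 each). It rose by 0.78 on the log2 scale (SE 0.15, adjusted p = 0.047), and by 0.77 with the block (SE 0.09, adjusted p = 2.0e-04). The call with the group alone was lost when any of the 6 libraries was left out, with adjusted p between 0.055 and 0.21. It was also narrowly lost with RLE factors (edgeR adjusted p = 0.0504) and by limma-voom (adjusted p = 0.0503). Without the filter on low counts the edgeR adjusted p was 0.067. Atf5 (ENSMUSG00000038539.15, chromosome 7, 44812256 to 44816658, minus strand) shares 82 exon bases each with Nup62 and Il4i1 on the other strand, and the library kit does not mark strand.

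Atf3, an ATF-family factor that represses many targets and is induced by ATF4, was the scarcest of the 10, with 88 to 482 counts per library. It had 2.35, 1.97 and 4.84 CPM with doxycycline, against 1.11, 1.12 and 2.29 CPM untreated. Replicate 3 was the highest library in both groups, and untreated replicate 3 was above doxycycline replicate 2. The log2 fold change was 1.01 with the group alone (SE 0.46, adjusted p = 0.35), and it was 0.53 without doxycycline replicate 3 (adjusted p = 0.68). With the block it was 0.996 (SE 0.17, adjusted p = 0.0017), and the pairs of replicates 1, 2 and 3 differed by 1.08, 0.81 and 1.08. Without the libraries of replicate 1 the block fit gave 0.97 (adjusted p = 0.052). The gene (ENSMUSG00000026628.13) spans 191170296 to 191218039 on the minus strand of chromosome 1.

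Of the feedback genes, Trib3 encodes a pseudokinase that is induced by ATF4 and CHOP and restrains both ATF4 and AKT signalling. It had 165, 129 and 239 CPM with doxycycline, against 70.0, 54.3 and 61.1 CPM untreated. Every doxycycline library was above every untreated one, by more than the whole range of the untreated ones. Trib3 rose most of the 10 genes, by 1.52 on the log2 scale (SE 0.24, adjusted p = 0.025), and by 1.49 with the block (SE 0.14, adjusted p = 4.6e-05). Within replicates 1, 2 and 3 the difference was 1.24, 1.25 and 1.97. With the group alone the call was lost without doxycycline replicate 1 (adjusted p = 0.091) or untreated replicate 1, 2 or 3 (adjusted p = 0.084, 0.11 and 0.065). With the block it was kept whichever number was left out (1.25 to 1.63). Trib3 (ENSMUSG00000032715.9) lies on chromosome 2 from 152337422 to 152344032 on the minus strand.

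Ppp1r15a encodes GADD34, the subunit that brings protein phosphatase 1 to eIF2 and ends the translation block. It had 43.0, 59.7 and 59.7 CPM with doxycycline, against 37.1, 42.5 and 45.9 CPM untreated. Doxycycline replicate 1 was below untreated replicate 3, so the groups overlapped. The log2 fold change was 0.37 (SE 0.18, adjusted p = 0.40), and 0.36 with the block (SE 0.10, adjusted p = 0.021). The block call was lost without replicate 1 (0.45, adjusted p = 0.073) and without replicate 2 (0.30, adjusted p = 0.12). Its relative Ppp1r15b, the constitutive counterpart, had 298 ± 43.7 CPM with doxycycline and 289.9 ± 16.1 CPM untreated (log2 fold change 0.04, SE 0.14, adjusted p = 0.94; 0.03 and adjusted p = 0.83 in the block fit). Ppp1r15a (ENSMUSG00000040435.12, chromosome 7, 45522916 to 45526268, minus strand) shares 12 exon bases with Tulp2.

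Sesn2 and Ddit4 encode inhibitors of mTORC1, the kinase complex that couples nutrients to growth, and both differed most in the pair of replicate 3. Sesn2, a leucine-sensing sestrin, had 55.2, 69.3 and 146 CPM with doxycycline, against 47.1, 53.6 and 63.3 CPM untreated. Doxycycline replicate 3 stood far above the other 5 libraries, and doxycycline replicate 1 was below untreated replicate 3. The log2 fold change was 0.72 (SE 0.35, adjusted p = 0.41), and 0.20 without doxycycline replicate 3. With the block it was 0.60 (SE 0.16, adjusted p = 0.022). That value was 0.30 without replicate 3 (adjusted p = 0.014) and 0.80 without replicate 1 (adjusted p = 0.056). Sesn2 (ENSMUSG00000028893.8) lies on chromosome 4 from 132492032 to 132510501 on the minus strand.

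Ddit4 encodes REDD1, which is also known as a target of hypoxia and of glucocorticoids. It had 91.2, 61.1 and 122 CPM with doxycycline, against 86.2, 54.9 and 78.1 CPM untreated. It was the member with the least difference, and its groups overlapped. The log2 fold change was 0.32 (SE 0.28, adjusted p = 0.68), and 0.29 with the block (SE 0.12, adjusted p = 0.090). The pairs of replicates 1, 2 and 3 differed by 0.08, 0.15 and 0.64. With the group alone the value was 0.07 without doxycycline replicate 3 and 0.15 without untreated replicate 2, and 0.55 without doxycycline replicate 2 and 0.48 without untreated replicate 1. Without replicate 3 the block value was 0.12 (adjusted p = 0.39), and without replicate 2 it was 0.37 and passed (adjusted p = 0.036). The gene (ENSMUSG00000020108.4) lies on chromosome 10 from 59949669 to 59951834 on the minus strand.

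Both metabolic targets had groups that were apart. Chac1, which breaks down glutathione and is known as a sensitive ATF4 and CHOP target, had 27.8, 21.8 and 29.9 CPM with doxycycline, against 16.9, 11.1 and 12.4 CPM untreated. Its lowest doxycycline library, replicate 2, was above the highest untreated one, replicate 1. Its log2 fold change was 0.98 (SE 0.22, adjusted p = 0.072), and 0.99 with the block (SE 0.13, adjusted p = 3.2e-04). The block call was kept whichever number was left out, at 0.84 or more. Chac1 (ENSMUSG00000027313.3) lies on chromosome 2 from 119351229 to 119354381 on the plus strand.

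Asns, which makes asparagine from aspartate and glutamine, was the most abundant of the 10. It had 1930.0, 1442 and 2039.8 CPM with doxycycline, against 1264, 994 and 1293 CPM untreated. The lowest doxycycline library, replicate 2, was still above each untreated one. The log2 fold change was 0.61 (SE 0.18, adjusted p = 0.16), and 0.60 with the block (SE 0.10, adjusted p = 0.0013). The pairs of replicates 1, 2 and 3 differed by 0.61, 0.54 and 0.66, the narrowest range of the 10 genes. Without replicate 1 the block fit gave 0.61 with an adjusted p of 0.051. Asns (ENSMUSG00000029752.12) lies on chromosome 6 from 7675169 to 7693254 on the minus strand.

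**Figure D2:**
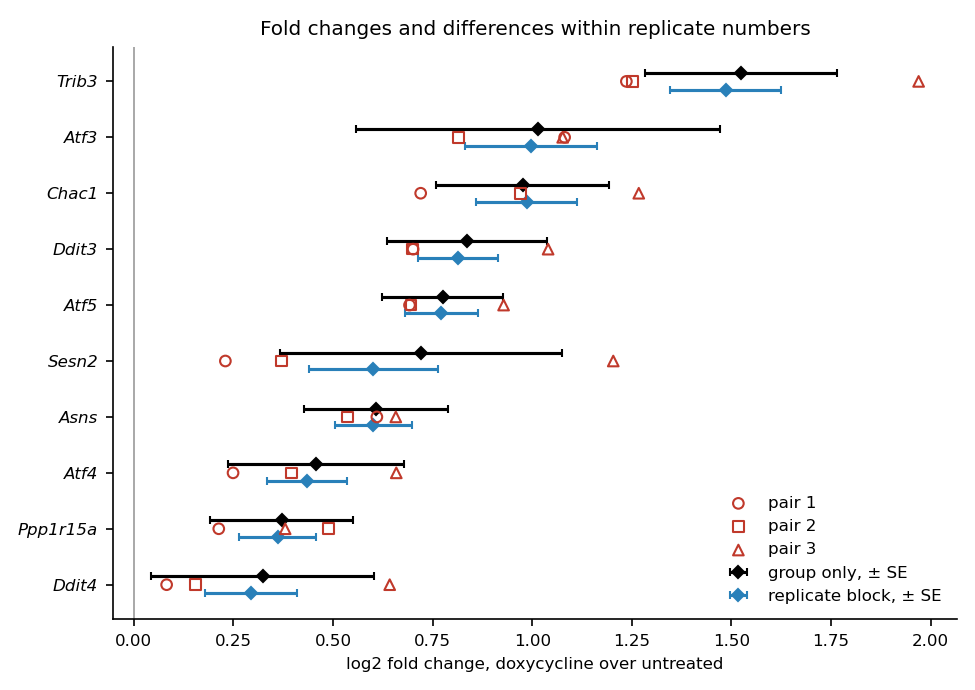
Log2 fold change, doxycycline over untreated, of the 10 genes with the group alone (black, ± SE) and with the replicate number as a block (blue, ± SE), and the difference within each pair of equal replicate number (open symbols). All pair differences are above 0, and the triangle of pair 3 lies farthest right for 8 of the 10 genes.

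Doxycycline replicate 3 had the highest level of all 6 libraries for each of the 10 genes, while 20.6% of all genes tested were highest there. For Ppp1r15a doxycycline replicate 2 had nearly the same level. The pair of replicate 3 had the largest difference for 8 of the 10 (36.8% of all genes tested), and the median difference of the 10 was 0.65, 0.62 and 0.98 in pairs 1, 2 and 3. Of the 10 erythroid markers, 9 were also highest in doxycycline replicate 3. The part of these markers in the difference between pairs was not tested. Without the libraries of replicate 3, 9 of the 10 genes passed with the block, and without those of replicate 1, 4 did (Trib3, Chac1, Atf5 and Ddit3). These fits had fewer residual degrees of freedom than the block fit of all libraries, so their calls are a weak check. Calls over the whole table moved too. Over all genes, 1452 rose in the block fit of all libraries, 2071 without replicate 3 and 368 without replicate 1.

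**Figure D3:**
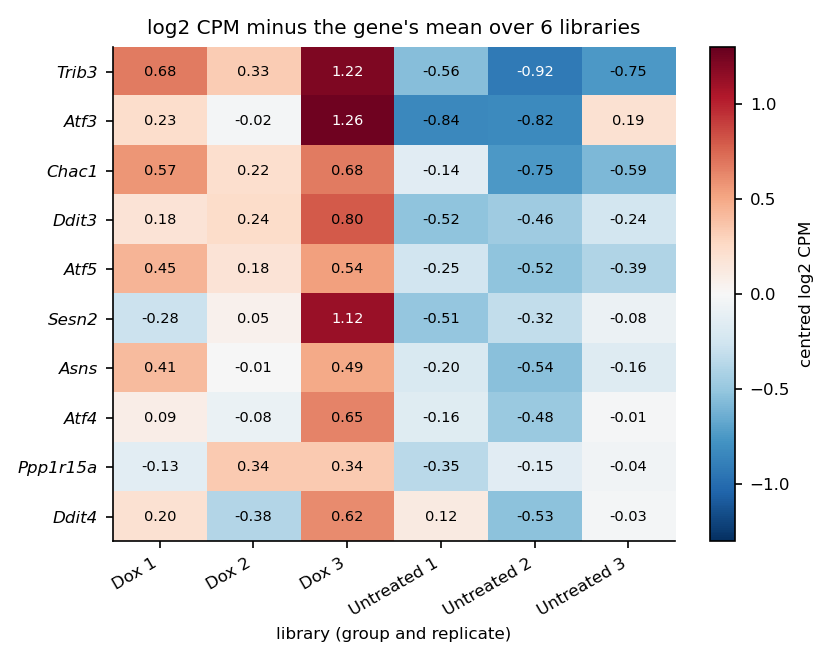
Log2 CPM of each gene minus its own mean over the 6 libraries, with the doxycycline libraries in the left 3 columns and the untreated ones in the right 3. The column of doxycycline replicate 3 holds the highest value in every row, up to 1.26 for Atf3, and the lowest values are in untreated replicates 1 and 2.

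Levels were compared between genes per kilobase of annotated exon sequence. Asns was highest, with 659.6 ± 116 CPM per kilobase with doxycycline and 433 ± 60.4 untreated, followed by Atf4 with 247 ± 68.3 and 180.3 ± 28.8 (SD, n = 3 each). In doxycycline libraries Trib3 came next (83.7 ± 26.4), and its range overlapped that of Atf5 (59.99 ± 7.54). Atf5, Ddit4 (52.1 ± 17.3), Ddit3 (49.9 ± 12.4) and Sesn2 (25.9 ± 14.0) each overlapped their neighbour in this order, as did Sesn2, Ppp1r15a (18.4 ± 3.28) and Chac1 (16.2 ± 2.57). In untreated libraries Trib3 (29.1 ± 3.69) stood below Ddit4 (41.6 ± 9.24) and Atf5 (35.0 ± 3.33) and beside Ddit3 (27.95 ± 2.90), and the ranges of Trib3 and each of these 3 genes overlapped. Atf3 was lowest in both groups, with 1.42 ± 0.723 and 0.700 ± 0.316 CPM per kilobase.

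Set against Atf4 in the same library, the other 9 genes did not move alike. The log2 ratio of Trib3 to Atf4 was higher with doxycycline than untreated by 0.99, 0.86 and 1.31 in pairs 1, 2 and 3. The ratio was also higher in every pair for Chac1 (0.47 to 0.61), Ddit3 (0.30 to 0.45), Atf5 (0.27 to 0.44) and Atf3 (0.42 to 0.83). For Ddit4 it was lower in every pair (-0.24 to -0.02). Sesn2, Asns and Ppp1r15a had ratios whose difference lay on both sides of 0, with Sesn2 at -0.02, -0.02 and 0.54. These ratios are given without a test.

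ATF4 binds, with C/EBP partners, to the C/EBP-ATF response element, searched here as TGATGNAA on both strands of the RefSeq promoter windows (GRCm38.p6, 250 bases before to 50 after each start). Windows were found for all 10 genes, 11 in number because Atf5 has 2 starts. The element was found for 4 of the 10 (Atf3, Chac1, Asns and Trib3) and in 3.97% of all 32851 windows. The matches are shown to compare their letters, each 5′ to 3′ on the strand that reads TGATGNAA, with the element in capitals, and Slc7a11, the cystine transporter gene described below, is added because its window holds a pair of them.
Atf3, chr1:191183425-191183454, plus strand: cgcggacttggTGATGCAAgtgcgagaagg
Chac1, chr2:119351038-119351067, minus strand: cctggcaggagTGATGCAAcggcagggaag
Trib3, chr2:152344028-152344057, plus strand: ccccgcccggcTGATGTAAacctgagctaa
Asns, chr6:7693214-7693243, minus strand: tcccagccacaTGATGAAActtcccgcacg
Slc7a11, chr3:50443661-50443690, minus strand: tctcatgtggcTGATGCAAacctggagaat
Slc7a11, chr3:50443642-50443671, plus strand: gggctgcatgaTGATGCAAattctccaggt
The elements of Atf3, Chac1 and Slc7a11 share all 8 letters, and those of Trib3 and Asns differ from them at the base that the N leaves free. They start 110 bases before the RefSeq start in Atf3, 193 in Chac1 and 23 in Asns, and 14 bases after it in Trib3.

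Other letters were searched in the same windows. The cAMP response element TGACGTCA (1.79% of all windows) was found for Ppp1r15a and the related ATF site TTACGTCA (0.499% of all windows) for Atf3, shown with the match in capitals.
Ppp1r15a, chr7:45526262-45526291, minus strand: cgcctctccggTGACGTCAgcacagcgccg
Atf3, chr1:191183325-191183354, minus strand: tattaatagcaTTACGTCAgcctgggattg
The Atf3 window thus holds both kinds of match and lies inside the annotated gene, some of whose transcripts start farther upstream, and the window of Chac1 holds the C/EBP-ATF element farthest from its start. Both are printed up to the first annotated exon base, on the strand of the gene, with the C/EBP-ATF element in capitals as its reverse complement.
Atf3, chr1:191183341-191183583, minus strand: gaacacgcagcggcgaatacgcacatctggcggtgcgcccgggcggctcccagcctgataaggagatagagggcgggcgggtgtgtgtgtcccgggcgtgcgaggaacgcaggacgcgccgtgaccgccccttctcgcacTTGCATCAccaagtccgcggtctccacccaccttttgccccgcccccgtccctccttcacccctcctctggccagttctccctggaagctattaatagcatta
Chac1, chr2:119350992-119351228, plus strand: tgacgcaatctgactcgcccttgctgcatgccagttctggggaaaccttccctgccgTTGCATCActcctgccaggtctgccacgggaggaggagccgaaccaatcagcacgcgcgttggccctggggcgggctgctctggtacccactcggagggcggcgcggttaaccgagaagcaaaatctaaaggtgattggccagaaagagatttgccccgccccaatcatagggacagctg
A PU.1 site spelled GAGGAAGT was found in the windows of none of the 10 genes and in 3.20% of all windows. The short cores CCACG (part of the ER stress element) and ACGTG (a hypoxia response core) were found for 7 and 4 of the 10, and in 32.8% and 19.6% of all windows. These matches describe the letters of the windows and nothing of what binds there.

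Around the 10 genes, 9 lists of pathway genes were counted, with 114 genes tested, each counted once. With the group alone 1 rose (Vegfa) and 3 fell (Impact, Sesn3 and Atf2), where 0.417% of all genes tested rose and 2.18% fell. With the block 29 rose and 17 fell, where 10.3% of all genes rose and 15.6% fell. In both fits the falls were thus near the share of all genes. The same shares are the background for each list below, and shares at an unadjusted p were not counted. The rises and falls are given list by list.

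Of 20 genes of amino acid supply that ATF4 is known to drive, none passed with the group alone (edgeR; 11 higher and 2 lower at an unadjusted p under 0.05), and 6 rose by DESeq2. With the block 13 rose and 2 fell, where 10.3% and 15.6% of all genes did so. The list's median log2 fold change was 0.46 with the group alone and 0.44 with the block. Slc7a11, which imports cystine, had 55.2 ± 20.9 CPM with doxycycline and 25.7 ± 4.19 CPM untreated (log2 fold change 1.05 with the block, adjusted p = 4.3e-04). Pycr1, an enzyme of proline synthesis, had 41.9 ± 3.03 and 21.9 ± 5.81 CPM with doxycycline and untreated (0.97, adjusted p = 8.1e-04). Slc1a4, a neutral amino acid transporter, had 99.8 ± 22.2 and 57.6 ± 5.23 CPM (0.77, adjusted p = 3.0e-04), and Mthfd2, a mitochondrial folate enzyme, 397 ± 83.6 and 265 ± 27.9 CPM (0.57, adjusted p = 0.0014; SD, n = 3 each). Cth, which makes cysteine, had the largest block value of the list (1.49, adjusted p = 0.0016), at 140.4 ± 128 CPM with doxycycline and 39.4 ± 11.7 CPM untreated. Its doxycycline replicates 1, 2 and 3 had 80.1, 54.2 and 287 CPM, and the pairs differed by 1.21, 0.81 and 2.44. The median difference of the list was 0.33, 0.36 and 0.67 in pairs 1, 2 and 3. The fallers were Psph, the last enzyme of serine synthesis (-1.35, adjusted p = 0.0013), whose exons overlap Cct6a on the other strand, and Cbs, the first enzyme from homocysteine to cysteine (-0.72, adjusted p = 0.022). The other serine synthesis genes had block values of -0.01 for Psat1 (adjusted p = 0.97) and 0.22 for Phgdh (adjusted p = 0.15).

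The aminoacyl-tRNA synthetases, which charge tRNAs with amino acids, and the tRNA exportin Xpot showed small positive values. None of 13 passed with the group alone (edgeR; 3 higher at an unadjusted p under 0.05) or by DESeq2, and 3 rose with the block, Gars (0.43, adjusted p = 0.0079), Cars (0.34, adjusted p = 0.017) and Yars (0.29, adjusted p = 0.048). Of all genes tested, 10.3% rose with the block. Nars had 0.26 (adjusted p = 0.060). Values of all 13 with the group alone lay between 0.06 and 0.44.

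Among 12 tested genes of signalling, death and autophagy that ATF4 or CHOP act on, none passed with the group alone (edgeR; 4 higher at an unadjusted p under 0.05) and 2 rose by DESeq2. With the block 7 rose and none fell, where 10.3% and 15.6% of all genes did so. None was lower at an unadjusted p under 0.05 either. Gadd45a, a growth arrest gene, had 52.1 ± 17.6 CPM with doxycycline and 25.4 ± 5.18 CPM untreated (1.01 with the block, adjusted p = 1.1e-04). Cebpb and Cebpg encode C/EBP partners of ATF4 and had block values of 0.79 (adjusted p = 0.0012) and 0.44 (adjusted p = 0.0080). Bbc3, which encodes the killer protein PUMA, had 9.32 ± 0.586 and 6.73 ± 0.539 CPM with doxycycline and untreated (0.47, adjusted p = 0.018; SD, n = 3 each). The exons of Gadd45a and of Cebpb overlap genes on the other strand. Of the 16 genes listed, 15 were in the table. Vldlr, Gdf15, Fgf21 and Jdp2 were not tested, and those of them in the table had at most 13 counts in any library.

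The ATF6 and XBP1 branches, which raise chaperones of the endoplasmic reticulum, gave a median of 0.01 in both fits. None of the 17 genes passed with the group alone (edgeR; 0 at an unadjusted p under 0.05) or by DESeq2, and with the block 1 rose (Edem1, 0.30, adjusted p = 0.038) and 2 fell, Hsp90b1 (-0.35, adjusted p = 0.035) and Sdf2l1 (-0.42, adjusted p = 0.012). Hspa5, which encodes the chaperone BiP, had 868 ± 83.3 CPM with doxycycline and 925 ± 64.7 CPM untreated (-0.09, SE 0.13, adjusted p = 0.83, with 0.48 in the block fit; SD, n = 3 each). Of all genes tested, 10.3% rose and 15.6% fell with the block. Calr had a block value of -0.25 (adjusted p = 0.074) and Sel1l one of 0.34 (adjusted p = 0.072). The difference between these branches and the ATF4 targets was not tested.

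The sensors and eIF2 control genes gave no rise in either edgeR fit or by DESeq2, with 0 higher at an unadjusted p under 0.05 with the group alone and 2 with the block. Of 15, Impact fell with the group alone, and with the block 5 fell, where 2.18% and 15.6% of all genes did so. Impact, which encodes an inhibitor of the amino acid sensor kinase GCN2, had 16.5 ± 1.22 CPM with doxycycline and 27.8 ± 0.543 CPM untreated (log2 fold change -0.75, SE 0.14, adjusted p = 0.042). Eif2b2, a subunit of the exchange factor for eIF2, had 42.4 ± 13.5 and 81.5 ± 9.73 CPM with doxycycline and untreated (-0.98 with the block, adjusted p = 5.2e-04; SD, n = 3 each). The GCN2 gene Eif2ak4 (-0.56, adjusted p = 0.0029), the gene of the viral RNA sensor PKR, Eif2ak2 (-0.58, adjusted p = 0.025), and Oma1, a mitochondrial protease (-0.39, adjusted p = 0.027), were the other fallers. Eif2b3 had a block value of 0.27 (adjusted p = 0.054). The HRI gene Eif2ak1, added here for its role in red cells, had 98.8 ± 11.1 CPM with doxycycline and 102 ± 11.9 CPM untreated (-0.05, SE 0.15, adjusted p = 0.92, with 0.70 in the block fit; SD, n = 3 each).

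**Figure D4:**
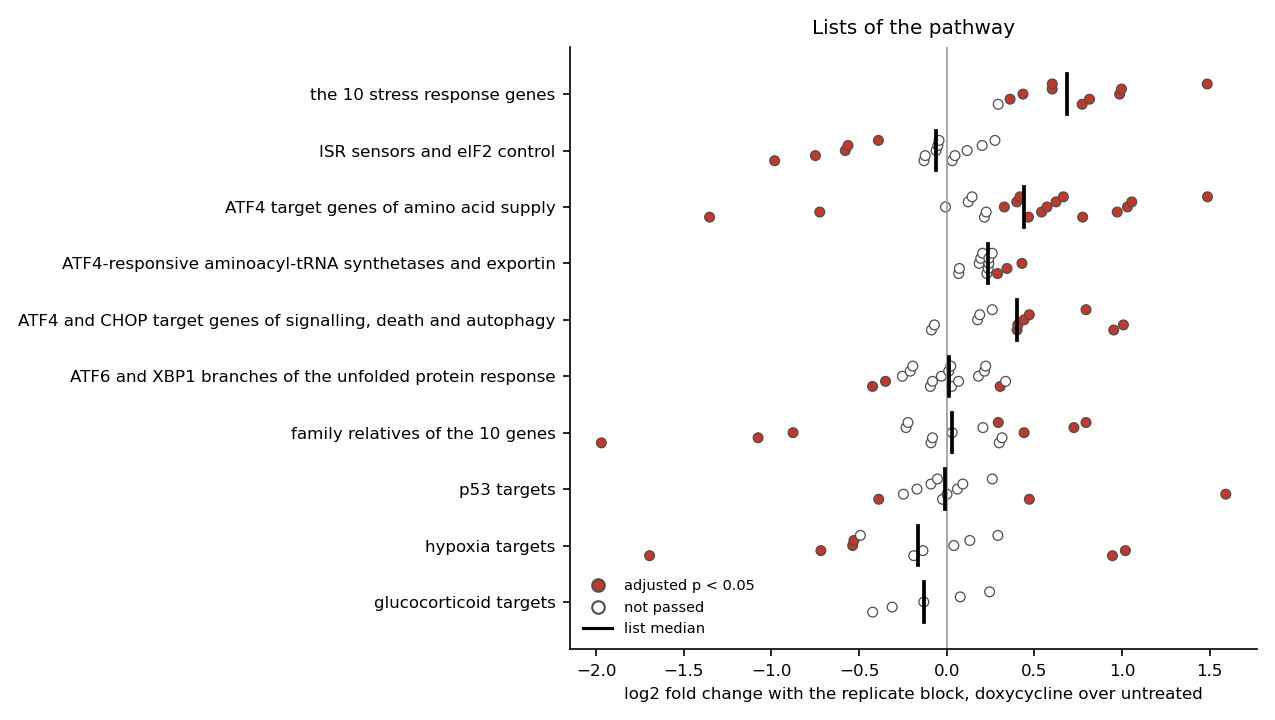
Log2 fold change with the replicate block, doxycycline over untreated, of each tested gene in the 10-gene set and in 9 lists of pathway genes. Filled points passed an adjusted p of 0.05 and black bars are list medians, at 0.69 for the 10 genes, 0.44 for amino acid supply and 0.01 for the ATF6 and XBP1 branches.

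Among 15 tested family relatives of the 10 genes, Atf2 and Sesn3 fell with the group alone. Atf2, a factor of the CRE-binding family, had 55.1 ± 4.43 CPM with doxycycline and 101 ± 11.5 CPM untreated (-0.88, SE 0.15, adjusted p = 0.028). Sesn3, at 0.256 ± 0.0892 and 1.004 ± 0.272 CPM with doxycycline and untreated, was scarce (-1.97, SE 0.37, adjusted p = 0.043; SD, n = 3 each). With the block 4 rose (Cebpb, Cebpg, Chac2 at 0.72 and Atf1 at 0.29) and 3 fell, among them Batf (-1.08). Of all genes tested, 10.3% rose and 15.6% fell in that fit. The relatives of Trib3 had block values of 0.31 for Trib1 (adjusted p = 0.44) and 0.30 for Trib2 (adjusted p = 0.053), and Sesn1 had -0.09 (adjusted p = 0.53).

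Other regulators of single members gave no common direction. Of 12 tested p53 targets, which include genes that share p53 control with Sesn2, none passed with the group alone (edgeR; 2 higher at an unadjusted p under 0.05) and 1 rose by DESeq2. With the block Phlda3 (1.59) and Bbc3 rose and Zmat3 fell (-0.39), while Tnfrsf10b had 0.26 (adjusted p = 0.33). Of 12 hypoxia targets Vegfa rose with the group alone (49.0 ± 5.19 CPM with doxycycline and 25.5 ± 3.31 CPM untreated, 0.94, SE 0.16, adjusted p = 0.032; SD, n = 3 each). With the block P4ha1 rose too (1.02), and Pdk1 (-0.72), Pgk1 (-0.54), Slc2a1 (-0.53) and Car9 (-1.69) fell. None of 5 tested glucocorticoid targets passed in either edgeR fit or by DESeq2 (at an unadjusted p under 0.05, 0 with the group alone, and 1 higher and 1 lower with the block), and Sgk1 had the smallest adjusted p with the block (-0.42, adjusted p = 0.069). Values with the group alone were 0.02 for Tsc22d3, -0.13 for Fkbp5, 0.26 for Per1, -0.32 for Zbtb16 and -0.41 for Sgk1.

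The genes most like the 10 were sought by the root mean square difference over the 6 libraries between log2 CPM centred on each gene's mean, among 9292 other genes of at least 5 CPM. Nearest to the mean of the 10 were Adm2, a peptide hormone of the calcitonin family (0.04), the processed pseudogenes Gm9260 and Gm7993 (both 0.07), Ubac1, a subunit of a ubiquitin ligase (0.07), Slc16a10, a transporter of aromatic amino acids (0.08), and Odc1, the first enzyme of polyamine synthesis (0.08). Adm2 had 27.0, 23.6 and 38.7 CPM with doxycycline, against 19.0, 16.2 and 20.5 CPM untreated. Whether reads counted for these processed pseudogenes came from their parent genes cannot be seen from the counts. Nearest to Atf4 alone were Cenpm, a centromere protein gene (0.02), Herpud1, a gene of protein breakdown at the endoplasmic reticulum (0.04), and Urod, an enzyme of haem synthesis (0.05). These genes were chosen for their likeness, so their own values are a description.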

How the data were processed

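The authors deposited raw read counts per gene symbol for 6 poly(A) libraries, made with a TruSeq kit that does not mark strand, per the labels' protocols. STAR, DESeq2, bcl2fastq 2.17.1.14 and the builds mm10 and GRCm38 are listed, without roles, per the submitters' processing notes. The counter and annotation: not given in the sources used here. The smallest deposited count in each column was 1, so 1 may have been added to every value. Counts were tested as deposited with edgeR 4.0.16 (limma 3.58.1, R 4.3.3): quasi-likelihood F test, TMM factors, filterByExpr, group as the only term, two-sided, Benjamini-Hochberg over all 14158 genes kept, threshold 0.05. Each SE was obtained as the log2 value over the root of F. Alternatives were a block for the replicate number, DESeq2 1.42.0, limma-voom, RLE factors, no filter, 1 taken off each value, and fits without single libraries or pairs. The block fits, unlike the main fit, treated libraries of equal number as pairs, since all 3 of their correlations were over 0.1. Those of unlike numbers, negative in part by construction, were -0.59 to -0.09. These correlations come from the same data, and no label explains the numbers. Common biological variation was 11.3% with the block (2 residual degrees of freedom) and 28.6% without it (4). Positions and exon lengths are from GENCODE M21 (GRCm38), and promoters from RefSeq (GRCm38.p6). Named besides the 10 genes were up to 4 genes per list with the smallest adjusted p of the main fit, genes called against a list's majority, and the most alike genes, while the remaining ones are named with small counts or as relatives and were chosen with their values in view. The genes and lists were chosen with earlier results of these data known. P-values of the fits with the group alone measure the spread between these cultures. Those with the block measure the spread of the group difference across replicate numbers. The independence of the cultures is known only from the labels.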

Additional observations from a re-analysis of the deposited data

How the results depend on the processing

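Across 16 alternatives all 160 values of the 10 genes stayed positive, the lowest being 0.07 for Ddit4 without doxycycline replicate 3. The number of the 10 that rose was 2 with the group alone, 9 with the replicate block, 4 by DESeq2, 10 by DESeq2 with the replicate block and 1 each with RLE factors, without the filter on low counts and by limma-voom. Taking 1 off each value left it at 2. The median log2 fold change over all genes tested was 0.07 by DESeq2 and 0.06 by DESeq2 with the replicate block. It was 0.007 and -0.002 in the edgeR fits with the group alone and with the block, so the DESeq2 values are shifted upward as a whole. Over all genes 59 rose and 308 fell with the group alone, 1452 and 2206 with the replicate block, 294 and 636 by DESeq2, and 1736 and 1660 by DESeq2 with the replicate block, and leaving out a library gave 0 to 26 and 35 to 242. The replicate block fits without replicates 1, 2 and 3 gave 368, 1310 and 2071 higher and 880, 2119 and 2677 lower. Of the pathway genes 1 rose and 3 fell with the group alone, 29 and 17 with the replicate block, 11 rose by DESeq2, 37 and 14 by DESeq2 with the replicate block, 1 fell without the filter, and leaving out a library gave 0 and 0 to 2. The replicate block fits without replicates 1, 2 and 3 gave 14, 25 and 31 higher and 6, 13 and 23 lower. In the replicate block fits without replicates 1, 2 and 3 the number of the 10 that rose was 4, 9 and 9. Leaving out a single library gave 0, 1 and 1 of the 10 without doxycycline replicates 1, 2 and 3, and 0 without each untreated replicate. Where a cause of such a change could be asked, it was not tested. The fits of all libraries had 3 a group and 4 or 2 residual degrees of freedom, so a gene that missed the threshold is not shown to be unmoved. Fits without a library had fewer than 4, and block fits without a replicate number fewer than 2. A call kept or lost in these is a weak check.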
